A study of Mus musculus with 474 samples.

Results

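The genes described here are 6 members of the MHC class II antigen presentation pathway, H2-Aa, H2-Ab1, H2-Eb1, Cd74, H2-DMa and H2-DMb1. They were picked by symbol from the 20612 genes in the deposited tables, with no measured value in the rule, and all 6 were among the 18823 genes that passed a filter on low counts. Their transcripts were measured by RNA-seq in skeletal muscle, the gastrocnemius according to the methods of the study, of Diversity Outbred (DO) mice, with 1 library per animal. DO mice are an outbred stock bred from inbred founder strains, in which each animal carries its own mosaic of founder haplotypes. Every animal was fed a high-fat, high-sugar (HFHS) diet, labelled as 45 percent fat, from a young age, and no group on another diet was included. The labels give the sex and a number of 17, 18, 19, 21 or 23, taken here as the DO generation. The labels do not name this number, and its reading is not certain, since the methods of the study list fewer generations. The 10 groups held, in order of generation, 48, 45, 49, 46 and 47 female and 46, 48, 50, 47 and 48 male libraries. The comparisons asked how far the level of each gene varied among outbred animals, whether it differed by sex or generation, and how closely the genes followed one another.

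MHC class II molecules hold peptides from endocytosed proteins at the cell surface, where CD4+ T cells read them. H2-Aa encodes the alpha chain and H2-Ab1 the beta chain of the molecule H2-A, and H2-Eb1 encodes the beta chain of H2-E. Cd74, the invariant chain, fills the groove of the new molecule and guides it to endosomes, and H2-DMa and H2-DMb1 encode both chains of H2-DM, which exchanges the remnant of Cd74 for peptide. Ciita, the class II transactivator, acts on the promoters of these genes through factors bound at the X and Y boxes. Dendritic cells, B cells and macrophages are the main cells that express the pathway, and muscle fibres are not known for it. In bulk tissue, fewer cells of such a type and less RNA in each cell cannot be told apart.

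In GENCODE M21 on build GRCm38, whose gene positions equalled 99.2% of the deposited ones, 5 of the 6 genes lay in a stretch of 197134 bases of chromosome 17. H2-DMa (ENSMUSG00000037649) was at chr17:34119541-34139101 on the plus strand and H2-DMb1 (ENSMUSG00000079547) at chr17:34153072-34160230 on the plus strand. H2-Ab1 (ENSMUSG00000073421) was at chr17:34257689-34269419 on the plus strand, H2-Aa (ENSMUSG00000036594) at chr17:34282744-34287823 on the minus strand, and H2-Eb1 (ENSMUSG00000060586) at chr17:34305867-34316674 on the plus strand. Cd74 (ENSMUSG00000024610) lies on another chromosome. The span of H2-DMa overlapped Brd2 on the other strand, and that of H2-Eb1 overlapped the antisense gene Gm20513. Use of strand in the counting is not given in the sources used here, so reads of such pairs could not be told apart, although H2-DMa and Brd2 had a Pearson r of 0.0237 over the libraries. The coding sequences of H2-DMb1 and its neighbour H2-DMb2 were 95.9% identical over 783 bases, so the division of counts between both genes is uncertain.

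Sequences upstream of the start sites show the promoter boxes that these genes can share. RefSeq promoter windows (GRCm38.p6, 250 bases before to 50 after the start) were searched on both strands for AGCAAC, the core of the X box, and TGATTGG, the Y box. H2-Aa, H2-Eb1, H2-DMa and H2-DMb1 had an entry, and H2-Ab1 and Cd74 had none. The Y box was found in H2-Aa, H2-Eb1 and H2-DMb1, starting 50, 61 and 63 bases before the start, and AGCAAC was found in H2-Eb1, 92 bases before it. Neither was in either of the windows listed for H2-DMa. Both of these windows lie inside the span of H2-DMa given above, downstream of its first base. They therefore do not show whether the boxes are present before that base. Over all 32851 windows, 14.8% held AGCAAC and 7.82% held TGATTGG, and these matches are letters in a window rather than known binding sites. Stretches before the start are printed 5′ to 3′ on the strand of each gene, with these boxes in capitals: chr17:34287824-34287973 on the minus strand for H2-Aa, chr17:34305717-34305866 on the plus strand for H2-Eb1 and chr17:34122682-34122821 on the plus strand for H2-DMa, the last ending before an annotated exon. For H2-DMb1 most of the stretch lies in an annotated exon and is not shown.
H2-Aa: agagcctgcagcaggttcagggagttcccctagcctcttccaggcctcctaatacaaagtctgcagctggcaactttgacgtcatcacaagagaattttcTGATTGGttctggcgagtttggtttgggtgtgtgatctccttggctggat
H2-Eb1: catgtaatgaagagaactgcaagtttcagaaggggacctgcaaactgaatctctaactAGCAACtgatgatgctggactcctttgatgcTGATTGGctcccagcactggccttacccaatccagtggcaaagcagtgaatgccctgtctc
H2-DMa: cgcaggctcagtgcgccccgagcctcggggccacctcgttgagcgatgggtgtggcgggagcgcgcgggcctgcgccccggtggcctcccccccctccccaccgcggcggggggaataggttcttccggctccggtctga

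The libraries held 35.9 to 165.7 M counts, with a median of 79.3 M, and muscle fibre markers such as Acta1 and Ckm summed to between 100242 and 205745 CPM (counts per 1 M of TMM-scaled total) in every library. In 5 libraries, 3 labelled female and 2 labelled male, the counts of Xist or Ddx3y went against the sex label. Of these, DO048 (female label) and DO308 (male label) are also a pair of columns that stand in exchanged places in the tables, so which animal each holds cannot be settled here. In 35 libraries the summed level of 9 B cell markers (Cd79a, Cd79b, Ms4a1, Pax5, Cd22, Cr2, Fcer2a and Ighd among them) was between 5.66 and 453.1 CPM, while the other libraries had at most 2.39 CPM. A limit of 4 CPM was set in this gap after the values were seen, and the libraries above it are called B cell-rich. They comprised 24 libraries of females (10.2%) and 11 of males (4.6%), and 5 to 10 libraries of each generation. The T cell markers had a median sum of 30.4 CPM in these 35 libraries and 0.649 CPM in the others, the adipocyte markers had 563.5 and 251.6 CPM, and the macrophage markers had 156 and 108 CPM. Results are therefore also given without them where they changed.

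All 6 genes were detected in muscle, with Cd74 (chr18:60803848-60812652, plus strand) the highest. Cd74 ranged from 4.94 CPM over a median of 15.2 CPM to 408.9 CPM. H2-Aa ranged from 1.67 over 7.80 to 238.1 CPM, and H2-Ab1 from 0.946 over 4.78 to 136 CPM. H2-Eb1 had no count in 1 library, which allows a level of up to 0.0473 CPM at 3 counts, a median of 3.57 CPM and a highest value of 156 CPM. Of the peptide editors, H2-DMa ranged from 0.486 over 1.78 to 14.3 CPM and H2-DMb1 from 0.0361 over 0.713 to 14.3 CPM. The median count was 1285 for Cd74, 403.5 for H2-Ab1, 280.5 for H2-Eb1, 141 for H2-DMa and 57.6 for H2-DMb1, with H2-Aa between Cd74 and H2-Ab1. Fewer than 10 counts were seen in 9 libraries for H2-Eb1, in 3 for H2-DMb1 and in no library for the other 4 genes.

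Divided by annotated exon length, the median level per kilobase was 9.07 CPM for Cd74, 2.05 for H2-Aa, 1.86 for H2-Ab1, 1.84 for H2-Eb1, 0.515 for H2-DMa and 0.424 for H2-DMb1. Cd74 was above H2-Aa per kilobase in 100% of libraries. H2-Aa was above H2-Ab1 in 75.7% of libraries and H2-Eb1 above H2-DMa in 87.8%. The order of H2-Ab1 and H2-Eb1 was not fixed, with H2-Ab1 higher in 51.3% of libraries, nor was that of the H2-DM chains, with H2-DMa higher in 58.0%. The levels of the classical chains, per kilobase, thus overlapped, and so did those of the chains of H2-DM below them.

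**Figure D1:**
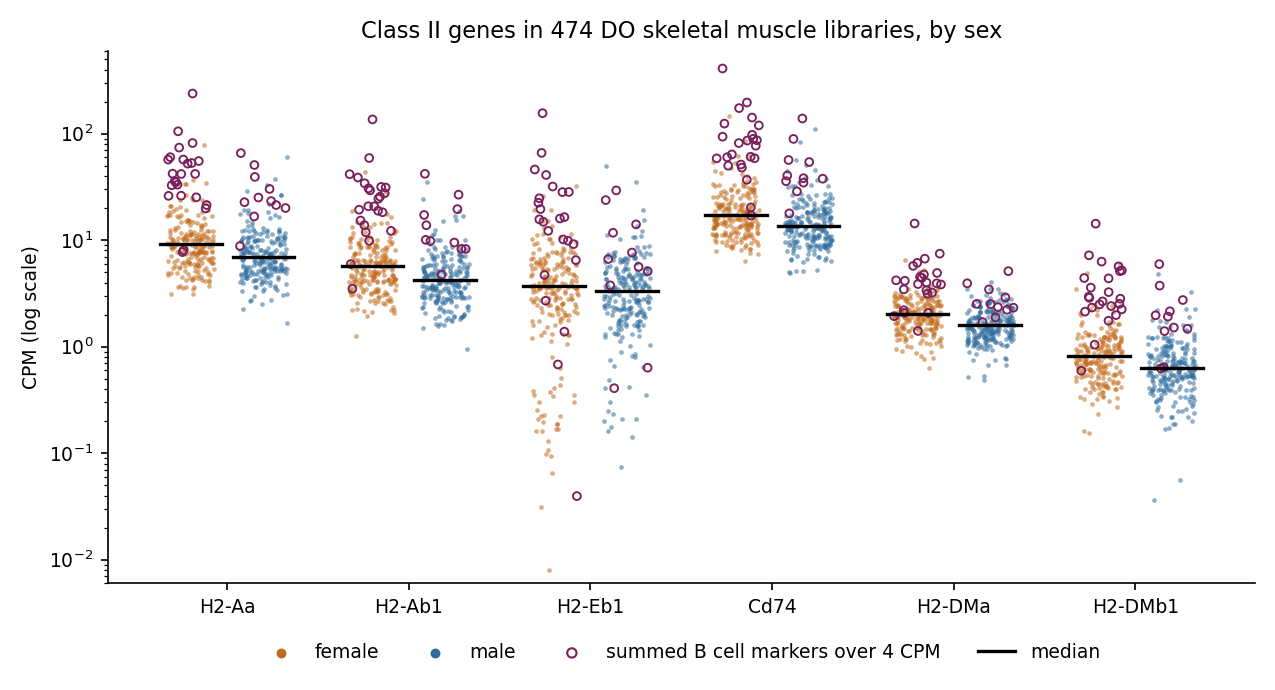
Level of each class II gene (CPM, log axis) in every library, females left and males right of each gene name, with the median as a black line and the 35 B cell-rich libraries as open circles. The open circles make up much of the upper tail of each gene, and H2-Eb1 alone has a long lower tail; its 1 library without a count is drawn near the bottom edge.

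The spread over animals was wide. The deposited variance-stabilised (vst) score, a log-like scale that is compressed at low counts, had an SD of 0.829 for H2-Aa, 0.757 for H2-Ab1, 0.991 for H2-Eb1, 0.839 for Cd74, 0.361 for H2-DMa and 0.453 for H2-DMb1, against a median SD of 0.209 over all genes. These SDs stood at the 98.2, 97.8, 98.8, 98.3, 86.2 and 92.0 percentile of all genes, in the same order. Among the 500 genes nearest in mean score, the percentiles were 97.2, 97.0, 98.2, 98.4, 77.6 and 86.6. On log2 CPM the SD was 0.958 for H2-Aa, 0.948 for H2-Ab1, 1.65 for H2-Eb1, 0.910 for Cd74, 0.606 for H2-DMa and 0.949 for H2-DMb1. H2-Eb1 thus had the highest and H2-DMa the lowest SD of the 6 on both scales, while H2-DMb1, well below H2-Aa on the vst scale, was close to it on log2 CPM. The 95th percentile of CPM was 9.11 times the 5th for H2-Aa, 8.90 times for H2-Ab1, 7.39 times for Cd74, 8.56 times for H2-DMb1 and 3.59 times for H2-DMa, but 67.8 times for H2-Eb1.

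The distributions of the 5 members other than H2-Eb1 were skewed to high values. Skewness of the vst score was 1.46 for H2-Aa, 1.47 for H2-Ab1, 1.48 for Cd74, 1.13 for H2-DMa, 1.82 for H2-DMb1 and 0.555 for H2-Eb1, with a median of 0.0383 over all genes. On log2 CPM it was -0.84 for H2-Eb1, the opposite direction, and 0.44 to 1.29 for the other 5. Cd74 exceeded 4 times its median in 22 libraries and stayed above 1 in 4 of its median in all. H2-Eb1 exceeded 4 times its median in 26 libraries and fell under 1 in 4 of it in 55. For H2-Aa these counts were 28 and 1, for H2-Ab1 22 and 1, for H2-DMb1 19 and 6, and for H2-DMa 2 and 0.

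Libraries rich in B cell markers filled much of the upper tail. Of the 47 libraries highest for each gene, 29 were B cell-rich for H2-Aa, 25 for H2-Ab1, 21 for H2-Eb1, 27 for Cd74, 22 for H2-DMa and 28 for H2-DMb1. Cd74 had a median of 60.1 CPM (17.03 to 408.9 CPM) in the 35 libraries and 14.5 CPM (4.94 to 146 CPM) in the others, so the ranges overlapped. The highest library for all 6 genes was DO191, a female of generation 18, with 408.9 CPM of Cd74, 238.1 CPM of H2-Aa and 453.1 CPM of B cell markers. In this library the B cell gene Ms4a1 reached 40.3 CPM and the T cell gene Cd3e 17.1 CPM. The next highest without B cell markers were DO333, a female of generation 21 with 146 CPM of Cd74 and 77.7 CPM of H2-Aa, and DO409, a male of generation 21 with 112 and 60.6 CPM. Their B cell markers summed to 0.620 and 1.44 CPM, within the range of the other libraries. The macrophage gene Adgre1 stood at 8.70 CPM in DO333 and 7.25 CPM in DO409, against a median of 2.82 CPM. The dendritic cell gene Flt3 stood at 0.832 and 0.787 CPM in these libraries (median 0.154 CPM) and Cd3e at 0.715 and 0.857 CPM (median 0.139 CPM).

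**Figure D2:**
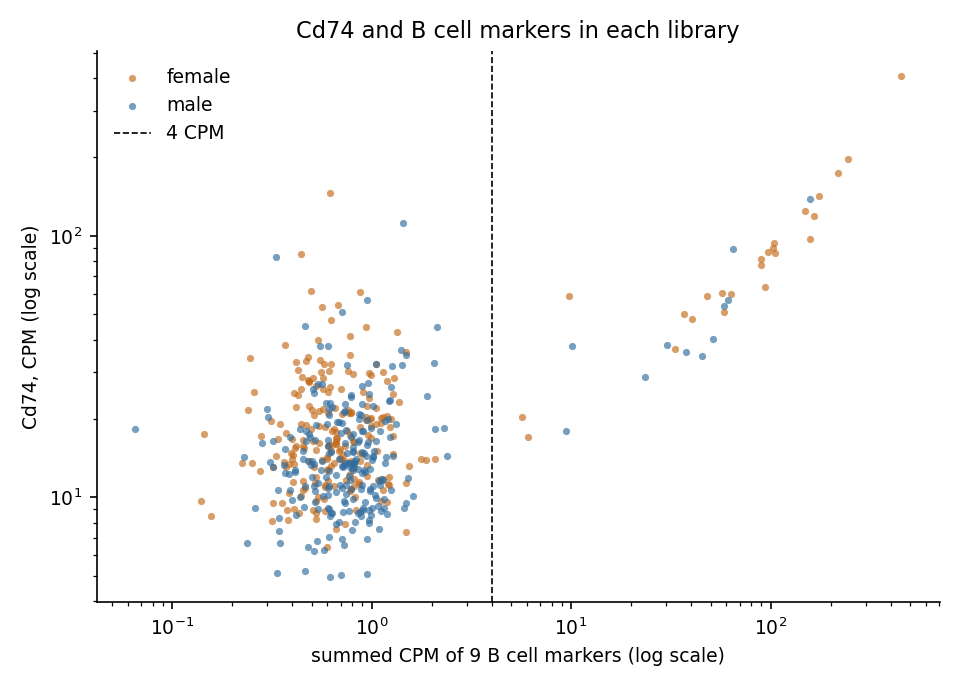
Cd74 (CPM, log axis) against the summed level of 9 B cell markers (CPM, log axis), 1 point per library, by sex, with the limit of 4 CPM as a dashed line. Left of the line Cd74 ranges from 4.94 to 146 CPM, and right of it, in 35 libraries, from 17.03 to 408.9 CPM.

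Without the 35 libraries the SD of the vst score was 0.633 for H2-Aa, 0.589 for H2-Ab1, 0.857 for H2-Eb1, 0.641 for Cd74, 0.302 for H2-DMa and 0.339 for H2-DMb1, still above the median of all genes. Skewness was then 0.929 for H2-Aa, 0.895 for H2-Ab1, 0.959 for Cd74, 0.388 for H2-DMa, 1.14 for H2-DMb1 and -0.0176 for H2-Eb1. The part of other cell types in what remained was not tested.

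All 6 genes were lower in males than in females. The median level of Cd74 was 17.2 CPM in females (6.43 to 408.9 CPM) and 13.5 CPM in males (4.94 to 139 CPM). H2-Aa had medians of 9.16 CPM in females (3.12 to 238.1 CPM) and 6.92 CPM in males (1.67 to 65.7 CPM), and H2-Ab1 had 5.76 CPM (1.27 to 136 CPM) and 4.20 CPM (0.946 to 42.0 CPM). The ranges of the sexes overlapped almost fully, with the lowest library of these 3 genes male and the highest female. Medians of H2-Eb1 were 3.73 CPM in females (0 to 156 CPM) and 3.36 CPM in males (0.0744 to 50.03 CPM). H2-DMa had 2.03 CPM (0.634 to 14.3 CPM) and 1.58 CPM (0.486 to 5.12 CPM), and H2-DMb1 had 0.824 CPM (0.155 to 14.3 CPM) and 0.627 CPM (0.0361 to 5.96 CPM). The female median was the higher in 5 of 5 generations for every member but H2-Eb1, for which it was so in 3.

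By edgeR's quasi-likelihood test with generation as covariate and adjustment over all 18823 genes, 6 of the 6 members were called lower in males, against 30.6% of all genes tested. The log2 difference, male minus female, was -0.66 ± 0.10 (SE) for H2-Aa (adjusted p = 4.75e-10), -0.66 ± 0.10 for H2-Ab1 (adjusted p = 1.29e-10) and -0.64 ± 0.09 for Cd74 (adjusted p = 1.47e-10). It was -0.43 ± 0.06 for H2-DMa (adjusted p = 3.09e-13) and -0.60 ± 0.09 for H2-DMb1 (adjusted p = 2.33e-09), and -0.51 ± 0.14 for H2-Eb1 (adjusted p = 0.000728). The level in males was thus 64.0% of that in females for Cd74 and 74.1% for H2-DMa. Without the 5 libraries that went against their sex label, the differences lay between -0.66 and -0.44, and all 6 genes were called.

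Leaving out the 35 B cell-rich libraries brought the differences down, and 5 of the 6 genes were called lower in males, against 27.2% of all genes. The difference was then -0.33 ± 0.08 for H2-Aa (adjusted p = 5.01e-05), -0.35 ± 0.08 for H2-Ab1 (adjusted p = 1.62e-05), -0.31 ± 0.07 for Cd74 (adjusted p = 6.13e-05), -0.33 ± 0.08 for H2-DMb1 (adjusted p = 8.33e-05) and -0.32 ± 0.05 for H2-DMa (adjusted p = 1.28e-09). That of H2-Eb1 was -0.08 ± 0.12 (95% interval -0.32 to 0.17, adjusted p = 0.639) and was not called. The median of Cd74 among these libraries was 16.3 CPM in females and 13.5 CPM in males. With scores for macrophage and B cell markers as covariates in all libraries, the differences were -0.37 for Cd74, -0.33 for H2-DMa and -0.26 for H2-Eb1 (adjusted p = 0.0425), and all 6 genes were called. The difference of H2-DMa therefore changed least, and that of H2-Eb1 was called neither without the 35 libraries nor by limma on the vst scores of all libraries (-0.15 on the vst scale, adjusted p = 0.143).

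**Figure D3:**
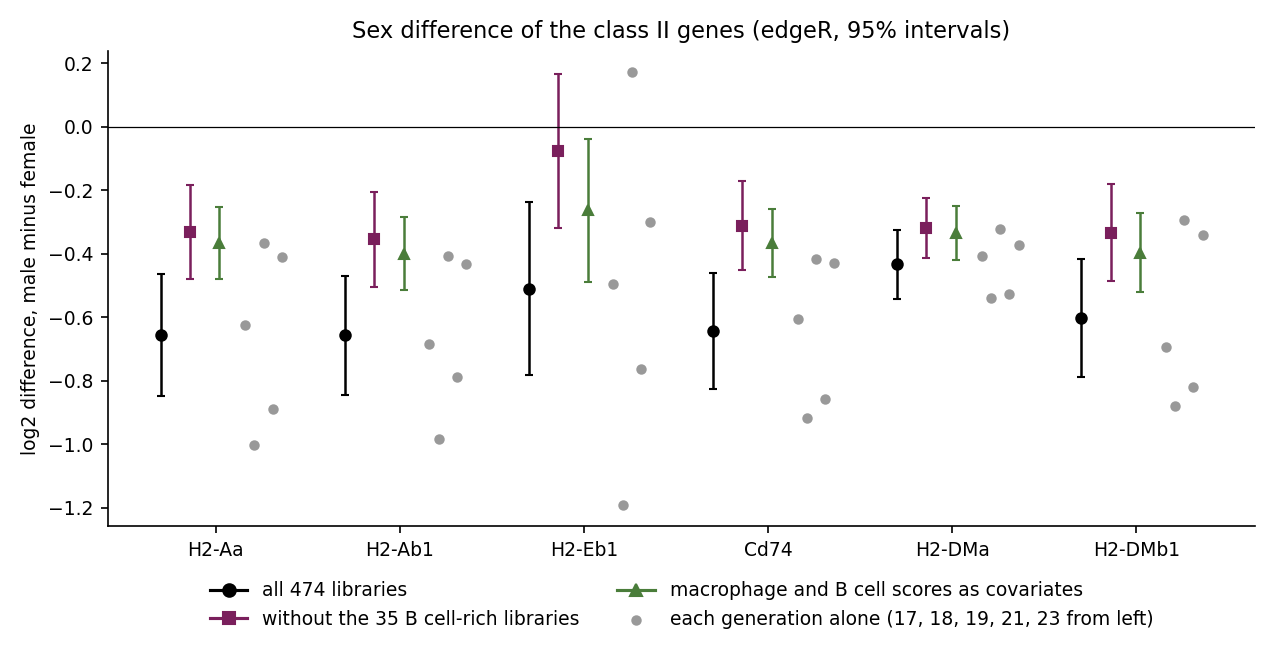
Log2 difference, male minus female, of each class II gene by edgeR with 95% intervals, in all libraries (black circles), without the 35 B cell-rich libraries (purple squares) and with marker scores as covariates (green triangles); grey points are fits within each generation. H2-DMa lies between -0.54 and -0.32 within generations, whereas H2-Eb1 lies between -1.19 and 0.17.

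Within the 5 generations fitted alone, Cd74 differed by -0.92 to -0.42, H2-Aa by -1.003 to -0.36, H2-Ab1 by -0.98 to -0.41, H2-DMb1 by -0.88 to -0.29 and H2-DMa by -0.54 to -0.32. Males were lower in 5 of 5 generations for these 5 genes, with H2-DMa called in 5 and each of the other 4 in 3. H2-Eb1 was lower in males in 4 generations, was called in 1 (generation 18, -1.19 ± 0.37, adjusted p = 0.0117), and had 0.17 ± 0.25 in generation 19 (adjusted p = 0.701). The interaction of sex and generation was called in 0 of the 6 genes by edgeR, 0.531% of all genes being called, with 1 gene, H2-Eb1, at an unadjusted p under 0.05 (p = 0.0249, adjusted p = 0.672). Limma on the vst scores called 0 as well, with 0 at an unadjusted p under 0.05.

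Levels by generation overlapped throughout. The group medians of Cd74 lay between 15.7 and 18.96 CPM in females and between 12.4 and 15.99 CPM in males over the 5 generations. Those of H2-Eb1 varied more, from 3.03 to 5.47 CPM in females and from 2.73 to 3.91 CPM in males. No member was called different between generations by edgeR, where 7.56% of all genes were. An unadjusted p under 0.05 was reached by 1 gene, H2-Eb1, whose fitted generations spanned 0.66 on the log2 scale (p = 0.0194, adjusted p = 0.144). DESeq2 and limma called 0 of the 6 too, each with 1 at an unadjusted p under 0.05. By edgeR without the 35 libraries 0 were called, with 3 at an unadjusted p under 0.05 (lowest adjusted p = 0.0784). With marker scores as covariates edgeR called 0 as well, with 3 at an unadjusted p under 0.05 (lowest adjusted p = 0.163).

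The last number of each library title runs on in 5 blocks of 91 to 96 libraries, which the labels do not name as batches. Blocks differed in 47.4% of all genes by edgeR, but in 0 of the 6 members, with 0 at an unadjusted p under 0.05 and a lowest adjusted p of 0.133, and limma called 0 with 0 at an unadjusted p under 0.05. Within single blocks the sex difference of Cd74 ran from -0.80 to -0.35 and was called in 3 blocks. That of H2-DMa ran from -0.50 to -0.32 and was called in all 5, and that of H2-Eb1 ran from -0.75 to -0.08 and was called in 0, with a lowest adjusted p of 0.0547.

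The spread of H2-Eb1 was smaller in males on the vst scale. The mean absolute deviation of its vst score from the group median was 0.806 in females and 0.615 in males, a difference of -0.19 ± 0.06 (limma, adjusted p = 0.0376). This was 1 of the 6 members, against 3.8% of all genes called smaller in males. The other 5 had differences of -0.14 to -0.06, with adjusted p between 0.0725 and 0.175. On log2 CPM 0 of the 6 were called by limma, with 3 at an unadjusted p under 0.05 (H2-Eb1 -0.33 ± 0.11, adjusted p = 0.0597), and with the deviation taken from the group mean of the vst score all 6 were called. Without the 35 libraries 0 of the 6 were called, with 0 at an unadjusted p under 0.05, and H2-Eb1 had -0.11 ± 0.05 (adjusted p = 0.418).

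The genes followed one another over the animals, but to unequal degrees. Correlations were taken over all libraries on vst scores after removal of the sex-by-generation means, with 100000 permutations within groups, 2-sided, and adjustment over the 15 pairs. H2-Aa and Cd74 had Pearson r = 0.976 (Spearman rho = 0.954), H2-Aa and H2-Ab1 had r = 0.968 (rho = 0.944), and H2-Ab1 and Cd74 had r = 0.966 (rho = 0.939). The permutation p was 1e-05 for both measures in these 3 pairs, the smallest that the permutations can give, and 1.07e-05 when adjusted. Cd74 thus followed the chains of H2-A, from which it lies on another chromosome, as closely as they followed each other. Without the 2 libraries farthest from the median of the first gene, r was 0.973, 0.965 and 0.963 for these pairs.

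H2-DMb1 was next, with r = 0.895 with Cd74 (rho = 0.815), 0.887 with H2-Ab1 (rho = 0.803) and 0.875 with H2-Aa (rho = 0.786). H2-DMa had r = 0.755 with H2-Aa (rho = 0.611), 0.741 with H2-Ab1 (rho = 0.590) and 0.721 with Cd74 (rho = 0.560). Between the chains of H2-DM itself, r was 0.647 (rho = 0.442), below the r of either chain with Cd74. These 7 pairs had the same smallest permutation p of 1e-05 for r and rho, adjusted to 1.07e-05. Without the 2 farthest libraries r was 0.883 for Cd74 and H2-DMb1, 0.728 for H2-Aa and H2-DMa, and 0.601 for the chains of H2-DM. Within the 5 library blocks r of H2-Aa and Cd74 ranged from 0.971 to 0.982, and that of H2-DMa and H2-DMb1 from 0.578 to 0.775.

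The Pearson r of H2-Eb1 with H2-Aa, H2-Ab1 and Cd74 was below that of H2-DMa or H2-DMb1 with the same genes, although by rho H2-Eb1 with Cd74 was above H2-DMa with Cd74. Over all libraries its r was 0.661 with H2-DMb1 (rho = 0.594), 0.631 with Cd74 (rho = 0.609), 0.618 with H2-Ab1 (rho = 0.577) and 0.559 with H2-Aa (rho = 0.511), each with a permutation p of 1e-05 and an adjusted p of 1.07e-05. With H2-DMa it had r = 0.241 (permutation p = 3e-05, adjusted p = 3e-05) but rho = 0.0704 (permutation p = 0.131, adjusted p = 0.131). Without the 2 farthest libraries these values of r were 0.625 with H2-DMb1 and 0.160 with H2-DMa. Within blocks r of H2-Eb1 and Cd74 ranged from 0.390 to 0.774, and that of H2-Eb1 and H2-DMa from -0.0624 to 0.424. As the libraries fell into separate sets by the ratio of H2-Eb1 to Cd74, described next, r was also taken within each set.

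Without the 35 B cell-rich libraries, r of the chains of H2-A and Cd74 stayed between 0.945 and 0.958. It was 0.816 for Cd74 and H2-DMb1, 0.570 for Cd74 and H2-DMa, 0.440 for the chains of H2-DM and 0.529 for Cd74 and H2-Eb1. For H2-Eb1 and H2-DMa it was -0.00238, so the value over all libraries rested on these 35. Within the 35 libraries r was 0.985 for H2-Aa and Cd74, 0.846 for the chains of H2-DM and 0.432 for H2-Eb1 and H2-DMa.

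**Figure D4:**
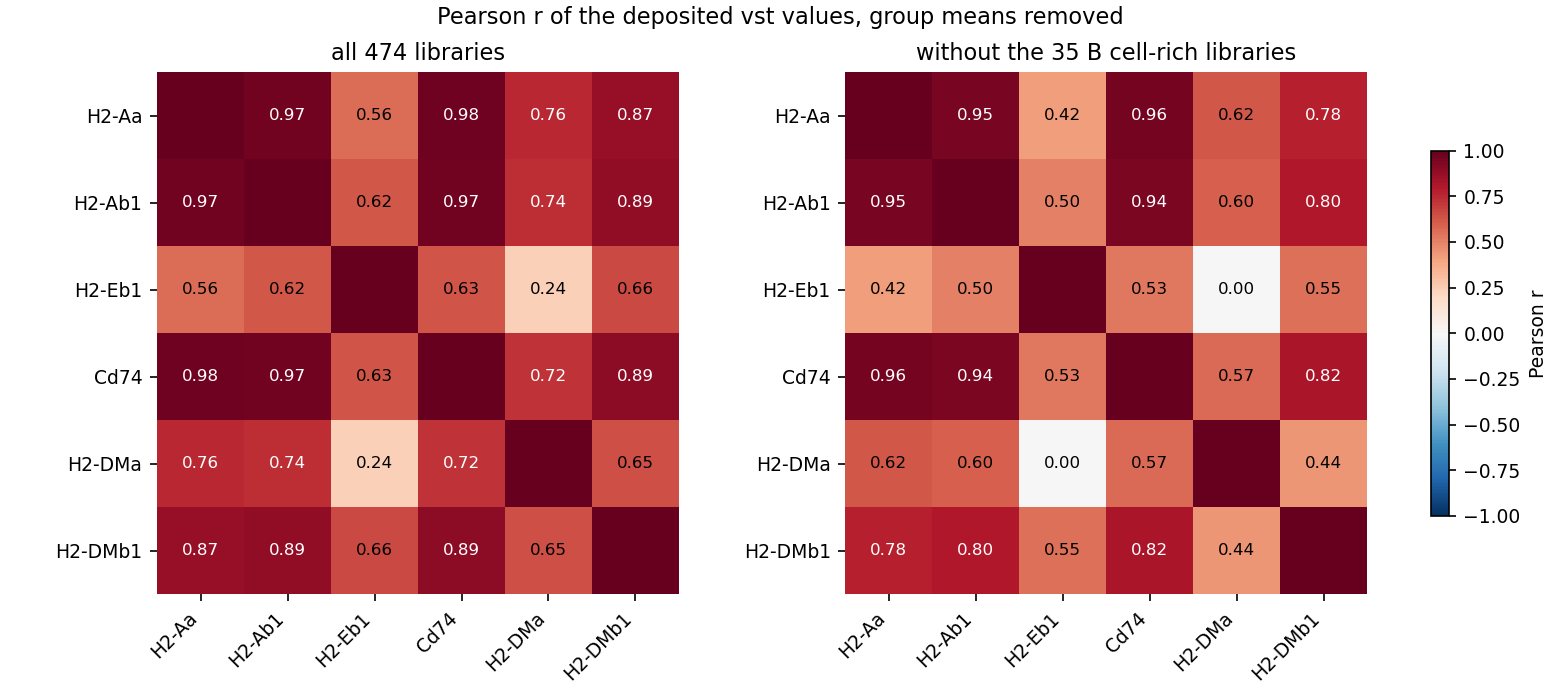
Pearson r of each pair of class II genes on vst scores with group means removed, over all libraries (left) and without the 35 B cell-rich libraries (right), on a colour scale from -1 to 1. H2-Aa, H2-Ab1 and Cd74 have r of at least 0.94 in both panels, and the rows of H2-Eb1 and H2-DMa are the palest.

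Taken as a ratio to Cd74 within a library, the members differed in how fixed their share was. The log2 ratio (counts plus a pseudocount of 0.5) had an SD of 0.22 for H2-Aa, 0.26 for H2-Ab1, 0.50 for H2-DMb1 and 0.65 for H2-DMa, with medians of -0.96, -1.70, -4.49 and -3.22. For these 4 genes the widest gap between neighbouring libraries, with 5% of the libraries left aside at each end, was at most 0.05. H2-Eb1 had an SD of 1.49 and a gap of 0.81, between -4.44 and -3.63, that set 51 libraries (10.8%) apart from the other 89.2%. Leaving out the B cell-rich libraries, the SD was 0.22 for H2-Aa and 1.46 for H2-Eb1.

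In the 51 libraries below the gap H2-Eb1 had 0 to 193 counts (median 20 counts, 0.227 CPM), and in the libraries above it had 35 to 10714 counts (median 321 counts, 3.85 CPM). The ranges of both sets overlapped in CPM. Over all libraries the vst score of H2-Eb1 had an r of -0.00372 with the log2 total count. The 51 libraries were found in all 5 generations (6, 14, 13, 8 and 10 libraries in order) and in all 5 blocks (9 to 12 libraries each). They comprised 34 libraries of females (14.5%) and 17 of males (7.11%), and 6 of the 35 B cell-rich ones. DO191, with the highest H2-Eb1, was above the gap. The libraries above it had a spread of their own, with 77 libraries in the bin from -2.50 to -2.25, 35 in that from -2.00 to -1.75 and 77 in that from -1.75 to -1.50.

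Within the libraries above the gap, H2-Eb1 had r = 0.872 with Cd74 (rho = 0.806), 0.856 with H2-Ab1 (rho = 0.779), 0.833 with H2-Aa (rho = 0.737), 0.828 with H2-DMb1 (rho = 0.726) and 0.497 with H2-DMa (rho = 0.248). Within the 51 below it, the values were 0.750 with Cd74 (rho = 0.619), 0.752 with H2-Ab1 (rho = 0.644), 0.761 with H2-Aa (rho = 0.646), 0.716 with H2-DMb1 (rho = 0.545) and 0.691 with H2-DMa (rho = 0.413). These values describe sets that were formed by the ratio of H2-Eb1 to Cd74, so that both genes entered the split, and they carry no test.

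**Figure D5:**
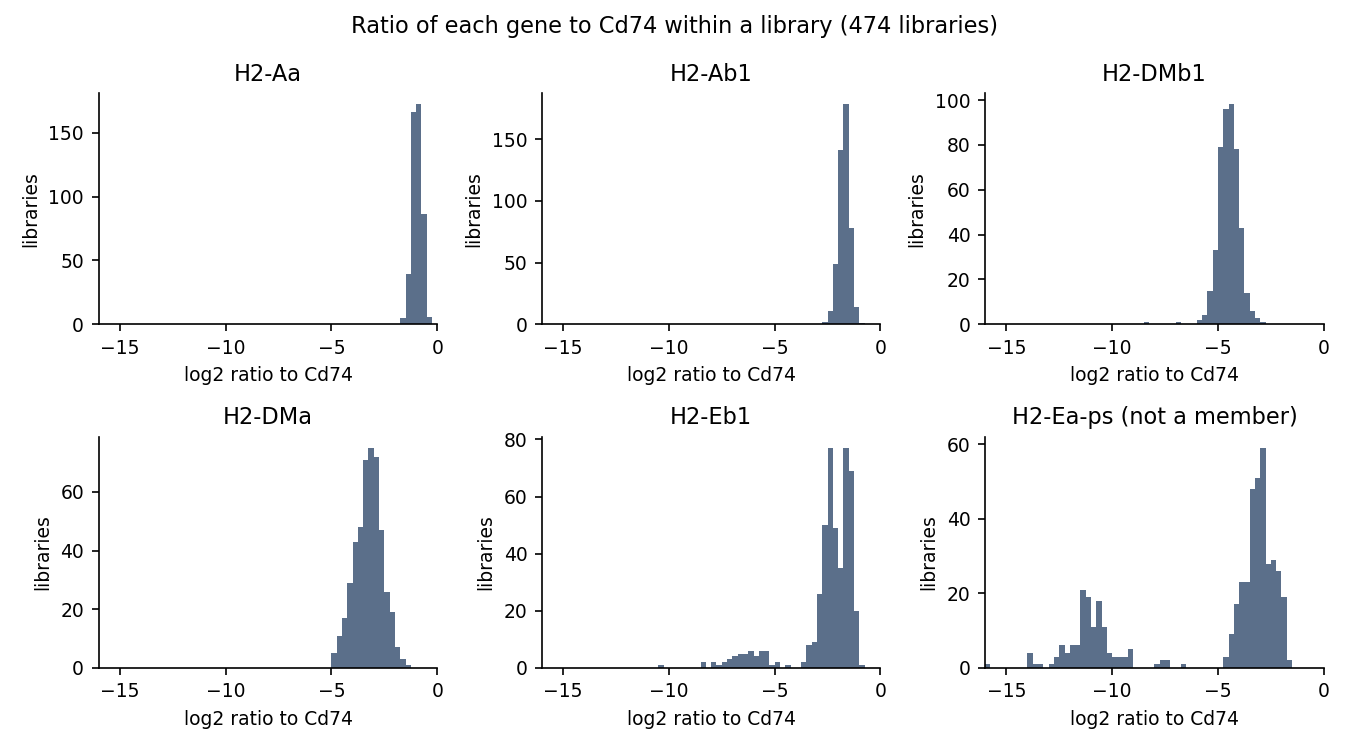
Number of libraries by the log2 ratio of each gene to Cd74 within the library (bins of 0.25), for the other 5 class II genes and for H2-Ea-ps, the locus of the H2-E alpha chain. H2-Aa and H2-Ab1 form narrow single peaks, H2-Eb1 has 51 libraries in a separate low group, and H2-Ea-ps has 137.

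What the other members did not account for also differed by gene. After regression of each vst score on the mean of the other members (H2-Eb1 left out of that mean), 6.87% of the variance was left for H2-Aa, 7.59% for H2-Ab1, 7.92% for Cd74, 23.4% for H2-DMb1, 45.8% for H2-DMa and 66.4% for H2-Eb1. For each member the 20 genes outside the 6 most like this remainder were listed, by absolute r. Of those 20, 18 lay within 4 Mb of H2-Eb1, 19 within 4 Mb of H2-DMb1, 14 of H2-DMa and 13 of H2-Ab1, while 1.12% of all genes lie in such a window. For H2-Aa 1 of 20 did, and its nearest genes were Scamp3, Fastk and Agpat1 with r of -0.392 to -0.379. For Cd74 13 of 20 lay within 4 Mb of H2-Aa, on the chromosome of the 4 genes that had served as its predictor.

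These genes were named after their values were seen. The nearest to the remainder of H2-Eb1 were Gm8909 (r = -0.683), Cyp4f16 (r = 0.619) and H2-D1 (r = 0.539), starting at 36164443, 32536558 and 35262730 of chromosome 17. For H2-DMa they were Gm8909 with the opposite sign (r = 0.445), Neu1 (r = 0.377) and C4a (r = 0.370), and for H2-DMb1 they were H2-Q2 (r = -0.331), Gm8909 (r = -0.314) and Neu1 (r = -0.309). Each member but H2-Eb1 served in the predictor of the others, so these remainders and the signs of their r are not independent. Genes near 1 member can thus enter the list of another. H2-D1 and H2-Q2 are MHC class I genes with near-identical copies, so their counts are uncertain. The haplotypes of the animals were not analysed here.

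Outside the members, Ciita was the gene most like them. Against the mean standardised score of the 6, the median r of the 18817 other genes was -0.00216, and 3.19% had r over 0.5. Ciita had r = 0.873, followed by Wdfy4 (r = 0.838), needed for cross-presentation in dendritic cells, Selplg (r = 0.832), a leukocyte ligand of selectins, and Mpeg1 (r = 0.830), a pore-forming protein of macrophages. Coro1a (r = 0.822), Arhgap30 (r = 0.819), Sla (r = 0.815), Laptm5 (r = 0.813), Nckap1l (r = 0.810) and Myo1g (r = 0.808) completed the first 10. Without the 35 libraries Ciita stayed first with r = 0.757, Mpeg1 had 0.694 and Coro1a 0.687, and 0.329% of genes had r over 0.5. Taken singly, H2-Aa, H2-Ab1, Cd74, H2-DMa and H2-DMb1 each had Ciita as the nearest gene, with r from 0.691 to 0.852. Without the 35 libraries H2-DMa had Coro1a (r = 0.542) above Ciita (r = 0.496). Over all libraries H2-Eb1 did not have Ciita as the nearest gene. Its nearest were H2-D1 (r = 0.734), Tap2 (r = 0.599) and Psmb8 (r = 0.599), all genes of the class I pathway on chromosome 17.

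Other genes of the class II pathway were read from lists chosen by their role. Of 8 transcription regulators, 3 were lower in males, Ciita (-0.85 ± 0.12), Rfx5 (-0.13 ± 0.03) and Rfxank (-0.12 ± 0.02), and 1, Nfyb, was higher (0.18 ± 0.02), by edgeR at an adjusted p under 0.05. The counts of lower genes in these lists stand beside 30.6% of all genes called lower in males, and 27.2% without the 35 libraries, and nothing particular to a list was tested. Ciita had a median of 0.605 CPM, and its difference was -0.25 ± 0.07 (adjusted p = 0.00121) without the 35 libraries. The median r with the 6 members over these 8 regulators was 0.0449, and Rfx5, Rfxap, Rfxank and the Nfy genes, which many promoters use, had r from -0.217 to 0.378. The highest of these, Nfya, had r = 0.0691 without the 35 libraries, where it was also called higher in males. Of 6 endosomal enzymes, 5 were lower in males, Ctss (-0.26 ± 0.06), Ctsl (-0.38 ± 0.03), Ctsb (-0.15 ± 0.01), Lgmn (-0.10 ± 0.02) and the thiol reductase Ifi30 (-0.60 ± 0.06). Of these enzymes Ctss, which trims the invariant chain in antigen-presenting cells, had the highest r with the members, 0.769 (0.531 without the 35 libraries), and Ctsd had 0.00338. The sex difference of Ctss was -0.04 ± 0.04 (adjusted p = 0.518) without the 35 libraries.

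Among genes of interferon-gamma signalling, Ifngr2 (-0.12 ± 0.02) and Irf1 (-0.13 ± 0.05) were lower in males, and Jak1 (0.26 ± 0.02) and Jak2 (0.28 ± 0.02) were higher. Irf1 had an r of 0.679 with the members, and 0.520 without the 35 libraries, while both Jak genes were near 0. The sex difference of Irf1 was -0.04 ± 0.04 (adjusted p = 0.378) without the 35 libraries. Of 4 genes that stabilise or remove class II molecules, March1 (-0.42 ± 0.09) and Cd83 (-0.20 ± 0.07) were lower in males, and 0 of the 4 was called without the 35 libraries. Interferon gamma itself was not analysed here.

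Markers of other cells were read in the same fits, in which 30.6% of all genes were called lower and 24.4% higher in males, and 27.2% and 24.6% without the 35 libraries. Nothing particular to a marker list was tested. Of the 10 B cell markers tested, 9 were lower in males in all libraries and 1, Ighm, which was not in the sum of 9, was higher (0.62 ± 0.12, medians of 39.9 CPM in females and 76.2 CPM in males). Without the 35 libraries 0 were lower and 2, Ighm and Ighd, were higher. Of the 9 T cell markers 9 were lower in males, and 3 without the 35 libraries. Of 9 dendritic cell markers 6 were lower in males, Flt3 at -0.73 ± 0.13 and Itgax at -0.60 ± 0.11 among them, and 1, Zbtb46, was higher (0.28 ± 0.02). Without the 35 libraries 3 were lower (Flt3, Clec9a and Itgax) and 2 higher (Zbtb46 and Clec10a). Of 12 macrophage markers 3 were lower (Lyz2, Cd14 and Itgam) and 1, Fcgr1, was higher, against 3 lower and 2 higher (Csf1r and Fcgr1) without the 35 libraries. The count called lower was near the share of all genes with and without them. Adgre1 had -0.04 ± 0.04 (adjusted p = 0.406). Of 9 adipocyte markers 8 were lower in males and 1, Lep, was higher (0.55 ± 0.13), and without the 35 libraries 7 were lower and Lep was again higher. Of 7 endothelial markers 6 were higher in males and 0 lower (5 and 0 without the 35 libraries), and of 8 muscle fibre markers 5 were higher and 2 lower, with and without them. The summed macrophage markers had medians of 112 CPM in females (57.1 to 321 CPM) and 108 CPM in males (45.5 to 200.3 CPM), and the summed dendritic cell markers 13.5 and 15.1 CPM. Most of the latter sum was Zbtb46, with medians of 8.43 CPM in females and 10.2 CPM in males and r = 0.111 with the 6 members. The share of each cell type in the sex difference of the 6 genes was not tested beyond the fits above.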

How the data were processed

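Gastrocnemius RNA of DO mice was sequenced as 1 library per animal, and groups were read from the sample titles. The authors aligned both mates as single reads to the transcriptomes of the founder strains with EMASE and GBRS, which gave expected counts per gene on GRCm38, deposited with no further scaling. Of the deposited values 68.6% were whole. A second deposited table holds a score for every gene in each library, made by the authors with the variance-stabilising transformation of DESeq2 (vst). Columns were matched to samples by animal name, since 4 of them stand in exchanged places relative to the sample list. A pair of these columns, DO048 and DO308, also went against their sex labels, so the match by name is uncertain for them, and all fits were repeated without the libraries that went against their sex label.

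Counts were rounded to whole numbers and filtered with filterByExpr (minimum count 10), which kept 18823 genes and removed 1789. TMM factors were 0.871 to 1.29. Sex, generation, their interaction and library block were tested with edgeR 4.0.16 (quasi-likelihood test, R 4.3.3), with Benjamini-Hochberg adjustment over all genes and a threshold of 0.05. Spread was tested with limma 3.58.1 on absolute deviations from the group median of the vst score. DESeq2 1.42.0 served as an alternative. On simulated counts for the sex difference over 18823 genes, 95% of changes of 0.5 and 100% of changes of 1 on the log2 scale were recovered. These counts were drawn at the trended dispersion, with no libraries set apart by B cell markers. Recovery was therefore not measured for genes as variable as the members. Correlations, ratios and sequence searches were computed in Python 3.11.15 (scipy 1.17.1, numpy 2.4.6, biopython 1.88, pandas 2.3.3), and figures drawn with matplotlib 3.10.9. Each animal gave 1 library, so p-values measure the spread between animals, and intervals cover counting error and this spread only. Animals were treated as independent, and their relatedness, which the study modelled as kinship in its eQTL fits, was not taken into account.

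Named genes were the 6 members, the genes of lists chosen by role or cell type, the 10 genes with the highest r with the mean of the members and the 3 with the highest r with each member. Genes nearest to the remainder of a member were named as well, by absolute r and after their values were seen. The members and lists were chosen with earlier results of these data known. Alternatives were other scaling (DESeq2 size factors, total count), other filters, limma on vst scores, DESeq2, block or marker scores as covariates, fits within each block or generation, and leaving out libraries. The allele-specific output, the haplotypes and the wave of the animals were not used here, and a few listed genes are not reported here.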

Additional observations from a re-analysis of the deposited data

How the results depend on the processing

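Over 21 alternatives, 126 values of the sex difference of the 6 genes were computed, of which 99 kept direction and call, 26 kept the direction without the call and 1 reversed. The reversed value was that of H2-Eb1 within generation 19 (0.17). Against 6 genes called in all libraries, 1 was called within block 2, 1 within block 3, 1 within generation 19 and 1 within generation 23, where about 1 in 5 of the libraries were fitted. Limma on the vst scores gave H2-Eb1 -0.15 (adjusted p = 0.143). All 96 values for generation, 42 for the interaction and 42 for block stayed uncalled. For spread, 1 gene was called in the main comparison, 0 on log2 CPM, 6 with the deviation taken from the group mean and 0 without the B cell-rich libraries, an alternative chosen after seeing the data. The cause was not tested.

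The median r of the 15 pairs was 0.741, and it was 0.513 with macrophage and B cell scores regressed out, 0.600 without the B cell-rich libraries and 0.609 as Spearman rho. Under 15 alternatives, 2 values of r kept the direction without the call and 3 reversed. The r of H2-Eb1 and H2-DMa reversed to -0.103 with the scores regressed out, -0.00238 without the B cell-rich libraries and -0.0624 within block 3. On log2 CPM the SD was 0.948 for H2-Ab1, 1.65 for H2-Eb1, 0.606 for H2-DMa and 0.949 for H2-DMb1. On the vst scale without the B cell-rich libraries the SD was 0.633 for H2-Aa, 0.589 for H2-Ab1, 0.641 for Cd74 and 0.339 for H2-DMb1. On log2 CPM without these libraries it was 0.759, 0.775, 0.711 and 0.796 in the same order.

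Over all genes, sex was called in 10362 (4595 higher and 5767 lower in males), against 3708 to 5380 within blocks and 3872 to 4765 within generations. Scaled by total count alone, 3330 genes were higher and 7469 lower in males, and the 6 members stayed lower. Generation was called in 1423 genes and in 54 to 176 within blocks. The interaction was called in 100 genes, in 48 at a mean CPM of at least 1 and in 0 by limma. Spread was called in 5.55% of genes, in 3.66% on log2 CPM, in 3.12% without the B cell-rich libraries and in 8.26% with the deviation taken from the mean. No paired analysis was possible because each animal gave 1 library and the groups share no replicate numbers. Depth limits H2-Eb1 in its low libraries and H2-DMb1, whose division of counts with H2-DMb2 is uncertain.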

Other observations

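H2-Ea-ps, annotated as a polymorphic pseudogene in GRCm38, is the locus of the alpha chain that pairs with H2-Eb1. It had no count in 112 libraries and a median of 1.30 CPM. The log2 ratio to Cd74 had a gap between -6.58 and -4.62, with 137 libraries (28.9%) below it. Of the 51 libraries low in H2-Eb1, 8 were also low in H2-Ea-ps and 43 were not, and 129 libraries were low in H2-Ea-ps alone. H2-Ea-ps was lower in males (edgeR, -0.83 ± 0.22, adjusted p = 0.000418), and -0.52 ± 0.21 (adjusted p = 0.0322) without the B cell-rich libraries.

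H2-DMb2, the paralogue of H2-DMb1, and H2-Ob, the beta chain of the H2-O inhibitor of H2-DM, were low in most libraries, with medians of 0.285 and 0.152 CPM. In DO191 they reached 31.8 and 40.1 CPM. Without the B cell-rich libraries the sex difference went from -1.30 to -0.30 ± 0.08 for H2-DMb2 (edgeR, adjusted p = 0.00049) and from -1.63 to -0.17 ± 0.10 for H2-Ob (adjusted p = 0.144). The r with the mean of the members went from 0.731 to 0.326 for H2-DMb2 and from 0.749 to 0.458 for H2-Ob. By edgeR, 0 of 8 transcription regulators and 0 of 6 endosomal enzymes were called different between generations, with 0 and 1 at an unadjusted p under 0.05, and limma gave the same counts.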
